A study of Mus musculus with 20 samples.

Results

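Zinc finger genes of the mouse whose symbol is Zfp followed by a number were described here by the DNA methylation of their regions, defined as the annotated gene with 1000 bp on either side. The mm10 annotation held 388 such protein-coding genes on the autosomes, of 20665 autosomal coding genes in all, and 348 of them had at least 1 measured CpG while 40 had none. Together they held 17898 of the 1253074 CpGs listed at either age on chromosomes 1 to 19, X and Y. Of these, 16518 were listed at 13 months, 17584 at 3 months and 16204 at both ages, and 2149 (12.0%) also lay in the region of another coding gene. CpGs within 1000 bp of an annotated gene end were kept apart from CpGs of the gene body. Ends were called 5′ or 3′ for the 325 genes with a known strand and left unplaced for the other 63.

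The assay was reduced representation bisulfite sequencing, in which an enzyme cut enriches CpG-rich fragments and bisulfite then tells methylated from unmethylated cytosines. The DNA came from mouse brain homogenate enriched for microglia. HEM mice carry an X-linked transgene, driven by a murine Thy-1 promoter, that overexpresses human α-synuclein (full length, wild type). WT mice served as controls. The strain label was B6D2F1/J in both genotypes, and it is missing for 1 HEM library of 13 months. HEM was represented by 8 libraries at 13 months and by 4 at 3 months, and WT by 4 at each age, although the series' design text counts 3 WT mice of 3 months. Each library is taken as a separate mouse; the labels do not say so outright, and p-values then measure only the spread between these libraries. The Thy-1 promoter is known to be active mainly in neurons, and the homogenate was enriched for microglia, not purified, so a change in the mix of cells and a change within a cell type cannot be told apart in these values. Libraries of the 2 ages were deposited as separate sets, so age and set cannot be told apart either. Values are percent methylation per position with no read counts, and the read depth is unknown. The regions of the marker genes of microglia that had CpGs (8 of 13) averaged 39.3% ± 4.66 in HEM against 41.8% ± 4.43 in WT at 13 months (SD, n = 8 and 4), and 44.1% ± 3.39 in HEM against 42.9% ± 2.29 in WT at 3 months (SD, n = 4 each), with a range of 32.7% to 47.1% over libraries. These levels are methylation, not expression, and do not measure the cell mix.

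Most proteins of this family carry arrays of C2H2 fingers, short folds held by a zinc ion that each read a few bases of DNA. Many also carry a KRAB domain, which binds the corepressor TRIM28; TRIM28 brings the histone methyltransferase SETDB1, heterochromatin proteins and DNA methyltransferases, and the best known targets are transposable elements and imprinted regions. The genes have multiplied by local duplication and stand in clusters of near copies. CpG-rich gene starts are in general free of methylation in somatic cells, whereas bodies of long or transcribed genes are in general methylated. The symbol does not always mean this class of protein: Zfp36, Zfp36l1 and Zfp36l2 encode CCCH finger proteins that bind AU-rich elements in messenger RNA and speed its decay.

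The promoter windows below show the span of starts met in the family, from the window of highest methylation to windows close to 0%. Each is a RefSeq window of 300 bases, 250 before to 50 after a start listed for the gene, in the GRCm38.p6 assembly (mm10). It is written 5′ to 3′ on the strand of the gene. Capitals mark CG pairs at which a position was listed. They are Zfp977 (chr7:42592496-42592795, minus strand), Zfp112 (chr7:24112070-24112369, plus strand), Zfp933 of the chromosome 4 cluster (chr4:147848369-147848668, minus strand), Zfp445 (chr9:122865957-122866256, minus strand) and Zfp281 (chr1:136624651-136624950, plus strand).

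Zfp977: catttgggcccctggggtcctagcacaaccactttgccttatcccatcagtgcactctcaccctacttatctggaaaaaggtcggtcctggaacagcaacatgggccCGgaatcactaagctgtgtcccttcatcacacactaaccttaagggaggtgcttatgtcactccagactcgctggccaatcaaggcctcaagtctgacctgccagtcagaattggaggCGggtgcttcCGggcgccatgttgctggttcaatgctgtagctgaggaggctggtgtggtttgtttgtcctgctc
Zfp112: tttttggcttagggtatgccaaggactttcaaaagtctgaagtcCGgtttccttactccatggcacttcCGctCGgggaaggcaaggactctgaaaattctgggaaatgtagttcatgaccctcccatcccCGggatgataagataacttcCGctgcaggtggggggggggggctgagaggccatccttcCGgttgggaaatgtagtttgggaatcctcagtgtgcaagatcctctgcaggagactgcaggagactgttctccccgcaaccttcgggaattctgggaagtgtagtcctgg
Zfp933: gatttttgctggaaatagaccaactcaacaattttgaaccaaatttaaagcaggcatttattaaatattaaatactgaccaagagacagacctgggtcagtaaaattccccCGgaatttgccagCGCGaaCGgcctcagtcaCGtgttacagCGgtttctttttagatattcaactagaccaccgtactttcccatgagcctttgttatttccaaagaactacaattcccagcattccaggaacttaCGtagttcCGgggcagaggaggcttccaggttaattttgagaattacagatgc
Zfp445: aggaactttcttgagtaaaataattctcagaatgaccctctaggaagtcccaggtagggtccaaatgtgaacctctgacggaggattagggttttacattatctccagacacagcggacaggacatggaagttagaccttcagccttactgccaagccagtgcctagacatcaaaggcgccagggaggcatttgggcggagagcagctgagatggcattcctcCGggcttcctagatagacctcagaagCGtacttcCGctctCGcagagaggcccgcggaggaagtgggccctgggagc
Zfp281: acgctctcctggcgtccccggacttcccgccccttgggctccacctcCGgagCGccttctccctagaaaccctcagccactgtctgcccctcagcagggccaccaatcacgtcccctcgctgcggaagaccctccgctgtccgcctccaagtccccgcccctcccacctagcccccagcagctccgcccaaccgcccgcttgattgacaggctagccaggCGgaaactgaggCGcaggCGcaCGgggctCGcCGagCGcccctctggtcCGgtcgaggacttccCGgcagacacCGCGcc

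The Zfp977 window held 6 CG pairs, of which 3 were measured, and it was methylated at 94.3% ± 2.49 in HEM against 94.8% ± 1.67 in WT at 13 months (SD, n = 8 and 4). At 3 months it stood at 91.1% ± 3.44 in HEM against 93.0% ± 1.54 in WT (SD, n = 4 each). Zfp112, with 6 of its 8 pairs measured, averaged 7.02% ± 2.52 in HEM against 5.44% ± 1.68 in WT at 13 months, and 3.398% ± 1.79 in HEM against 5.52% ± 3.29 in WT at 3 months. The other windows shown stayed under 1%: Zfp933 averaged 0.194%, Zfp281 0.123% and Zfp445, whose protein keeps the methylation of imprinted regions, 0.0672% over the 20 libraries. The Zfp445 window surrounds a start inside the annotated gene (122848910 to 122886851). It lies more than 1000 bp from the annotated 5′ end, so its CpGs were counted as gene body. The RefSeq table gave 394 windows for 325 of the genes. A window had at least 3 CpGs at both ages in 195 cases, and 194 of these averaged under 10% while 1, that of Zfp977, was over 50%. Among windows of other autosomal coding genes with as many CpGs (8636), 95.5% were under 10% and 2.13% over 50%. These shares cover the more CpG-rich windows only. Zfp windows with at least 3 CpGs held a median of 21 CG pairs and those with fewer a median of 8. No CpG was listed in 174 of the 394 Zfp windows, so their methylation is unknown. Of the positions measured in Zfp windows, 99.4% fell on a CG pair of the RefSeq sequence. The hexamer GGGCGG, the box read by SP1, stood on either strand in 43.9% of Zfp windows and 47.1% of other windows. TGCCGC, the hexamer that ZFP57 binds when methylated, stood on either strand in 14.7% of Zfp windows and 14.2% of other windows; matches of these hexamers may overlap. A match is a description of the letters only.

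At the scale of whole 5′ ends, 221 Zfp genes had at least 3 CpGs and 206 of them (93.2%) averaged under 10%, against 87.6% of 9920 other genes. Only Zfp42 and Zfp977 were over 50% (0.905%), against 6.71% of other genes. Zfp42, known as Rex1 and a marker of pluripotent cells, averaged 84.4% over 10 CpGs of its 5′ end, 87.6% over 23 CpGs of its 3′ end and 89.2% over 4 CpGs of its body. Its whole region stood at 87.6% ± 1.84 in HEM against 86.2% ± 2.89 in WT at 13 months (SD, n = 8 and 4), and at 86.9% ± 0.978 in HEM against 86.4% ± 2.21 in WT at 3 months (SD, n = 4 each), so a gene of embryonic cells was methylated throughout in every group. The 5′ end of Zfp541, which encodes a factor of meiosis in the testis, averaged 34.2% over 25 CpGs, and that of Zfp536, known as a repressor of neuronal differentiation, 32.2% over 10 CpGs. Also over 10% were Zfp872 (43.8%), Zfp451 (41.0%), Zfp180 (33.7%), Zfp119b (27.7%), Zfp454 (23.9%), Zfp996 (21.99%) and Zfp551 (21.5%). The lowest of the 15 over 10% were Zfp777 (17.7%), Zfp14 (13.8%), Zfp879 (13.6%) and Zfp169 (10.3%). These genes were picked by their level after it was seen, and no test is attached to the list.

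Over CpGs listed at both ages, 5′ ends averaged 1.42% over the 20 libraries in Zfp genes (6290 CpGs) and 2.41% in other coding genes. Gene bodies averaged 43.6% in Zfp genes (7625 CpGs) and 46.2% in other coding genes, and 3′ ends 42.5% in Zfp genes (631 CpGs) and 47.8% in other coding genes. The ends of genes without a known strand averaged 5.60% in Zfp genes (1658 CpGs) and 4.96% in other coding genes. Each Zfp class was nearly level between groups. At 13 months 5′ ends stood at 1.46% ± 0.120 in HEM against 1.40% ± 0.0444 in WT, 3′ ends at 42.9% ± 1.39 in HEM against 42.3% ± 0.481 in WT, and bodies at 43.8% ± 0.846 in HEM against 43.7% ± 0.462 in WT (SD, n = 8 and 4). At 3 months 5′ ends stood at 1.41% ± 0.0239 in HEM against 1.39% ± 0.0724 in WT, 3′ ends at 42.5% ± 0.614 in HEM against 42.0% ± 0.423 in WT, and bodies at 43.3% ± 0.138 in HEM against 43.2% ± 0.344 in WT (SD, n = 4 each). In every class and at both ages the libraries of HEM and WT overlapped. No p-value is given for these averages over members.

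**Figure D1:**
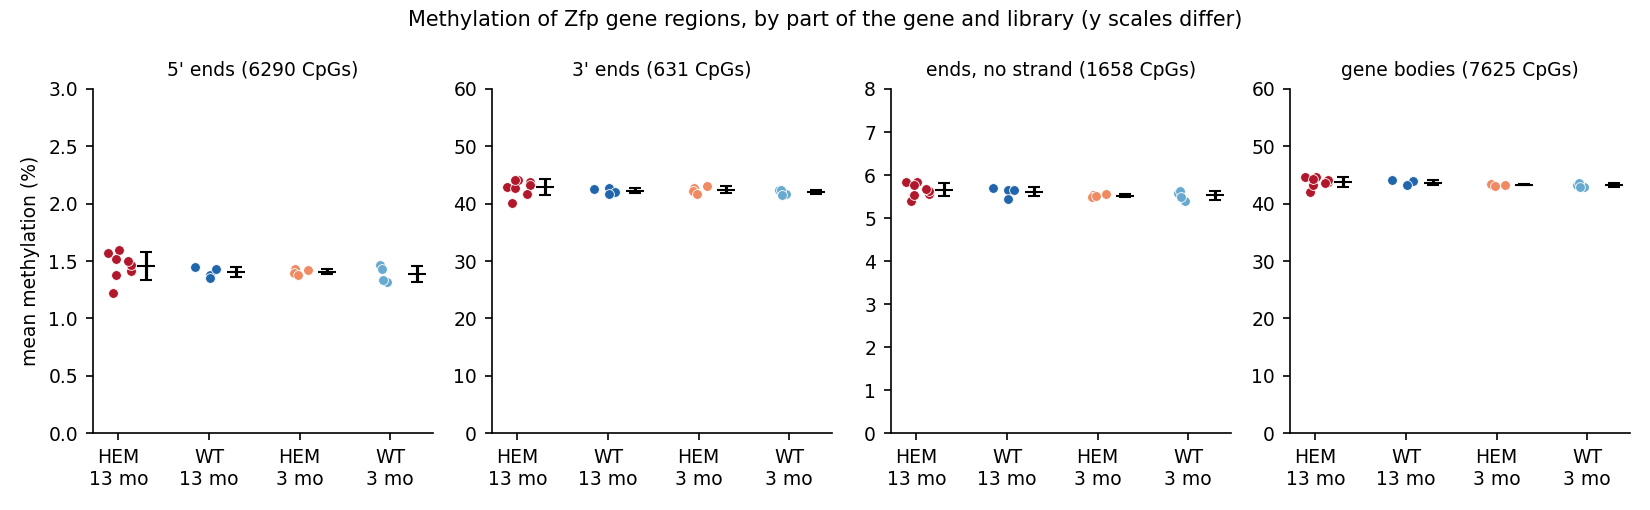
Mean methylation in percent (y axis) of Zfp CpGs listed at both ages, by group (x axis) and part of the gene (panels, with their own y scales). Points are libraries, and the bar beside them is the mean and SD. The HEM and WT points overlap in every panel at each age, for example at 43.8% and 43.7% on average in gene bodies at 13 months.

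Methylation climbed with distance into the gene. In the 500 bp after the start it averaged 0.827% in Zfp genes and 1.61% in other coding genes. Between 2000 and 3000 bp it was 23.0% in Zfp genes and 19.3% in others, and between 5000 and 10000 bp it was 59.6% in Zfp genes and 40.4% in others. Farther in, from 10000 to 20000 bp, the order turned, with 42.8% in Zfp genes and 51.5% in others. That turn depended on how CpGs were averaged: with each gene counted once, the same bin held 74.9% in Zfp genes (91 genes) and 69.7% in others. With each gene counted once, the bin of 5000 to 10000 bp held 77.6% in Zfp genes (78 genes) and 65.8% in others. Counted by gene, bodies with at least 3 CpGs were over 80% methylated in 114 of 218 Zfp genes (52.3%) and in 34.1% of 11570 other genes, and under 10% in 30 Zfp genes (13.8%) and in 11.2% of others. A 5′ end under 10% together with a body over 80% occurred in 73 of 127 Zfp genes (57.5%) with 3 CpGs in each part and in 32.9% of 6794 other genes. These shares describe lists of unequal size and were not tested.

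**Figure D2:**
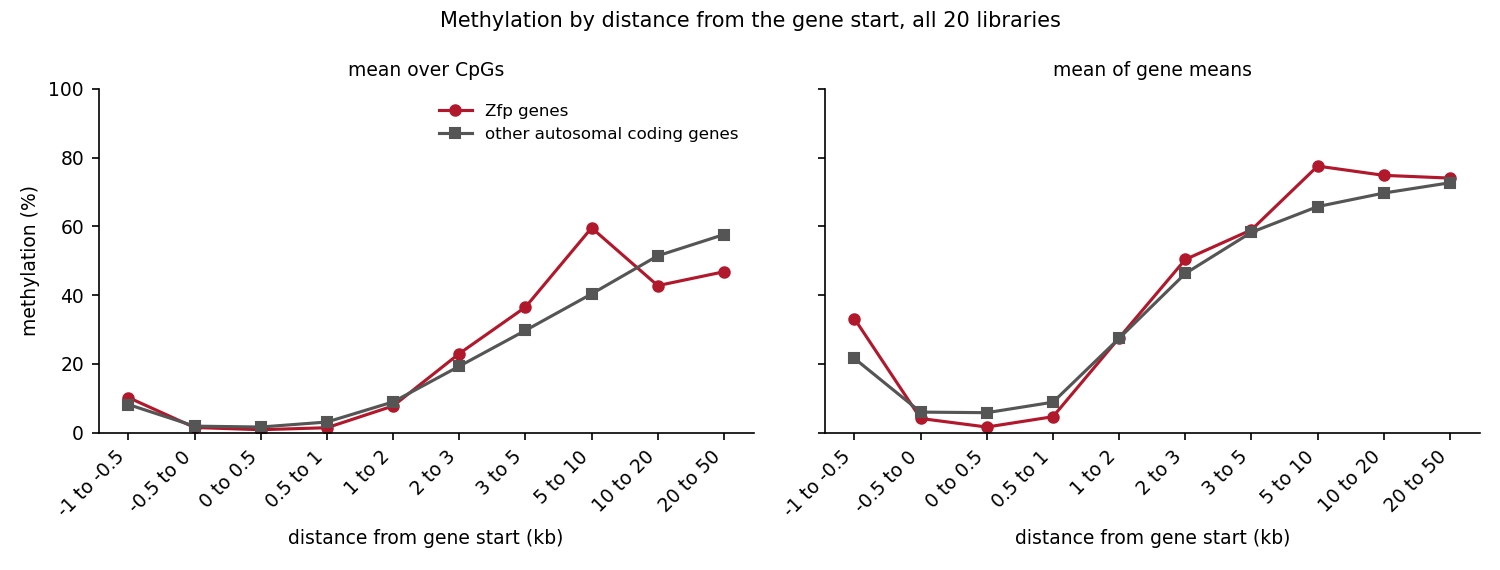
Methylation in percent (y axis) by distance from the gene start in kb (x axis, bins of growing width), averaged over the 20 libraries, for Zfp genes and for other autosomal coding genes. The left panel averages CpGs and the right panel averages genes. Both lines lie under 10% within 0.5 kb of the start, and at 5 to 10 kb Zfp genes reach 59.6% by CpG and 77.6% by gene.

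Among the 328 Zfp regions with at least 3 CpGs at both ages, the level ran from near 0% to near 100%. The highest were Zfp952 (97.5%), Zfp111 (96.8%), Zfp35 (96.4%), Zfp850 (96.3%) and Zfp729a (96.0%), in each of which the CpGs listed at both ages were few, 5 to 11. The rank of Zfp35 holds for those CpGs only. Over all its 17 CpGs listed at 3 months it averaged 62.4% in HEM and 62.7% in WT. The lowest were Zfp959 (0.0435%), Zfp326 (0.0746%), Zfp946 (0.0850%), Zfp62 (0.0915%) and Zfp207 (0.0933%), with 5 to 52 CpGs. Regions whose level varied most over libraries were Zfp383 (64.9% to 94.9%, 3 CpGs), Zfp874b (17.8% to 46.6%, 3 CpGs), Zfp957 (59.9% to 87.4%, 10 CpGs), Zfp239 (57.5% to 82.6%, 23 CpGs) and Zfp106 (64.8% to 88.2%, 3 CpGs). Single CpGs with a range of over 50 points between libraries numbered 302, which was 1.86% of the Zfp CpGs and compared with 2.52% of the CpGs of other coding genes. They lay in 84 Zfp genes, and 6 of these genes held 97 of them. These were Zfp423 (26 of its 479 CpGs), Zfp710 (19 of 205), Zfp536 (16 of 398), Zfp541 (13 of 29), Zfp839 (12 of 78) and Zfp64 (11 of 195). The regions differ in size, so the counts do not rank the genes by variability. This list of genes was made after the values were seen.

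Genes listed for their known role differed in where they were methylated. Among regulators of imprints and retroviruses, Zfp57, which binds methylated imprinted regions, stood at 22.4% over 14 CpGs, none of which lay in its 5′ end. Zfp445 stood at 6.54% over 61 CpGs, with 0.471% in its 5′ end, which is not the window shown above. Zfp568, which silences a placental Igf2 transcript in the mouse embryo, had 0.0870% at its ends and 92.7% in its body. Zfp809, which silences murine leukaemia viruses in embryonic stem cells, had 0.163% at its 5′ end and 82.4% in its body. Among factors of GC-rich promoters, Zfp281 stood at 0.158% over 76 CpGs, all of them in its 5′ end, and Zfp148 at 0.123% in its 5′ end and 13.1% in its body. The mRNA decay factors were low throughout: Zfp36, which limits TNF in macrophages, stood at 1.17%, Zfp36l1 at 0.784% and Zfp36l2 at 0.618%. Among developmental factors, Zfp521, a factor of neural and blood progenitors, had 0.194% at its ends and 70.5% in its body, and Zfp423, a factor of cerebellar and fat cell development, had 1.53% at its 5′ end and 34.9% in its body. Zfp335, needed in neural progenitors, had 9.83% at its 5′ end and 67.1% at its 3′ end, Zfp292 had 0.384% at its 5′ end and 97.2% in its body, and Zfp703, a corepressor, stood at 12.4% over 172 CpGs.

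Neighbouring Zfp genes at most 500 kb apart formed 33 clusters of at least 3 genes, which took in 236 genes and left 152 outside. With gaps of 250 kb there were 29 clusters, and with gaps of 1000 kb there were 32. The 5′ ends averaged 1.67% in clusters and 1.27% outside them, and gene bodies 48.7% in clusters and 40.7% outside. Averaged over CpGs, the 3′ ends differed most, with 28.3% in clusters (384 CpGs) and 64.5% outside (247 CpGs). The range over libraries was 27.4% to 29.6% in clusters and 59.9% to 67.3% outside. The mean in clusters leans on clusters with many such CpGs: 126 lay in that of Zfp553 to Zfp646 on chromosome 7, at 15.0%. Among clusters with at least 3 such CpGs the 3′ level ran from 0.462% (Zfp263 to Zfp597, chromosome 16, 27 CpGs) to 94.6% (Zfp84 to Zfp146, chromosome 7, 7 CpGs). Among clusters, the body level ran from 15.5% around Zfp445 on chromosome 9 to 98.0% around Zfp68 and Zfp113 on chromosome 5. Only the cluster of Zfp119a, Zfp959 and Zfp119b on chromosome 17 had 5′ ends over 10%, at 19.1% over 16 CpGs. The cluster of 24 genes on chromosome 13, with Zfp58 and Zfp65, averaged 2.26% in 5′ ends and 47.2% in bodies, and that of 23 genes on chromosome 17, with Zfp53 and Zfp758, averaged 1.004% in 5′ ends and 47.5% in bodies. Between genotypes, HEM minus WT for whole clusters lay between -1.24 and 1.93 points at 13 months and between -0.969 and 1.59 points at 3 months. The 1.93 points belonged to the Zfp119a cluster, at 25.8% ± 4.48 in HEM against 23.8% ± 3.29 in WT (SD, n = 8 and 4), a difference under the SD of either group.

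**Figure D3:**
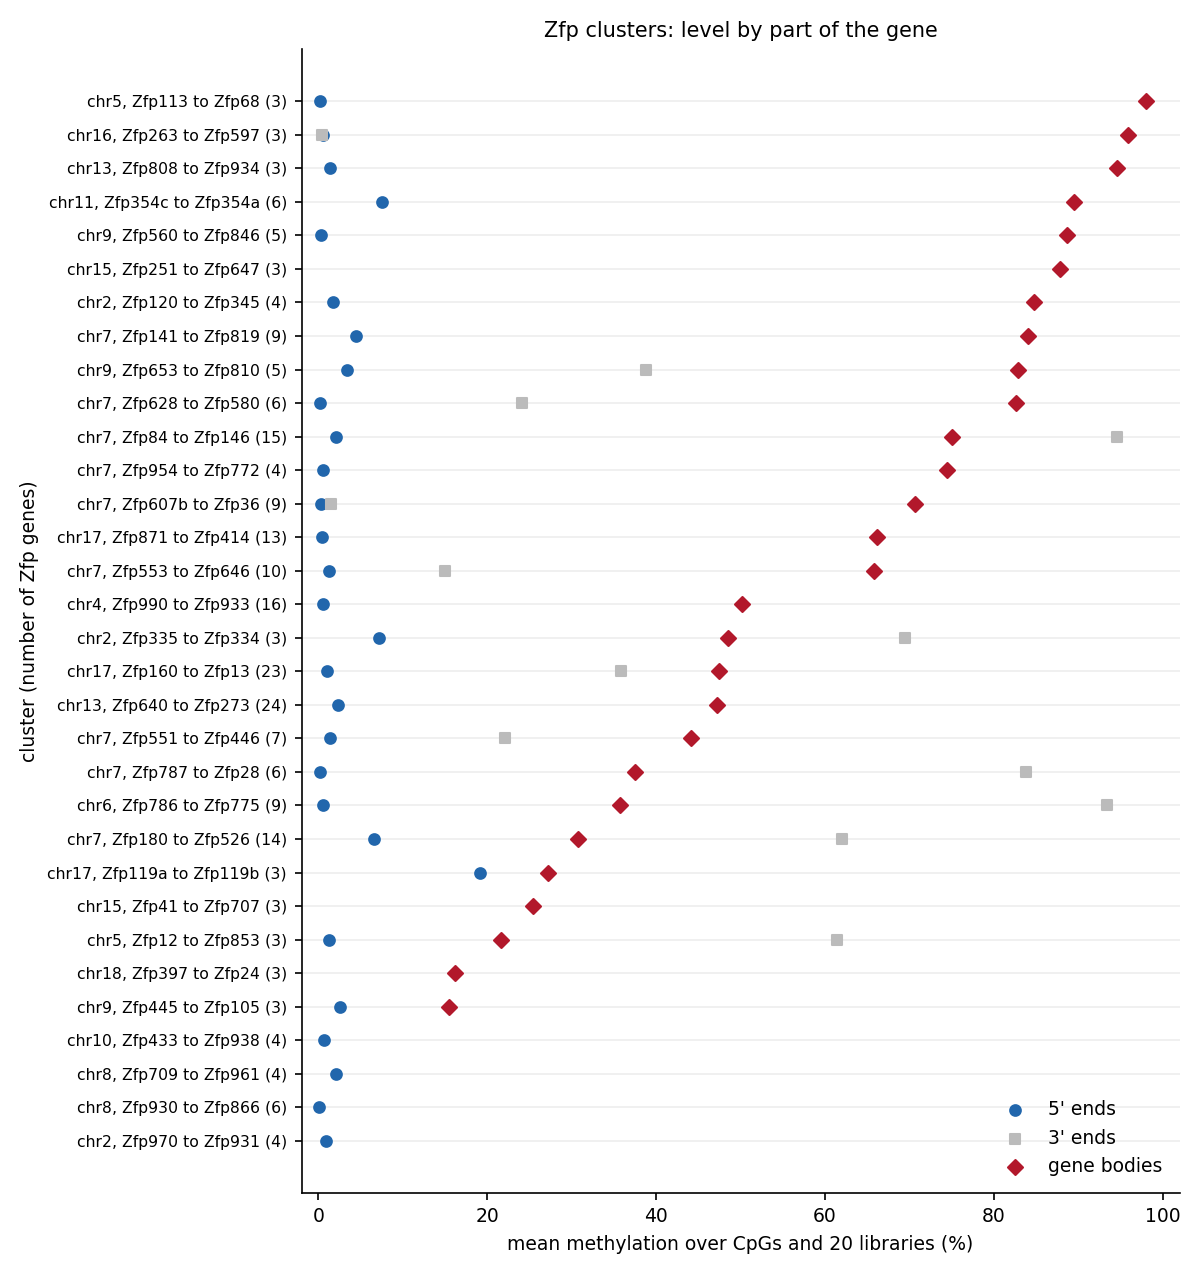
Mean methylation in percent (x axis) over CpGs and the 20 libraries for each Zfp cluster with CpGs (y axis, named by chromosome, outermost genes and number of genes), for 5′ ends, 3′ ends and gene bodies. Clusters are ordered by body level, and those without a body level (fewer than 3 body CpGs) stand at the bottom. The 5′ ends stay under 10% in all clusters shown with a 5′ level but that of Zfp119a (19.1%), while bodies spread from 15.5% to 98.0%.

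Other families with related names or clustered genes gave a frame for these levels. Zbtb, Zkscan and Zscan genes, which also encode zinc finger proteins (67 regions), averaged 1.33% in 5′ ends, 31.2% in 3′ ends and 44.9% in bodies. Olfactory receptor genes, which also stand in large clusters but have few CpGs (248 CpGs at both ages over 1104 regions), averaged 70.7% in 5′ ends and 82.6% in bodies. The starts of clustered Zfp genes ran from 1.39% to 1.96% over libraries and those of olfactory receptor genes from 68.4% to 72.4%, with no overlap.

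The chromosome 4 cluster, from 145.5 to 147.8 Mb, held 16 Zfp genes, and its KRAB zinc finger genes are known from mouse deletions to restrain some endogenous retroviruses. It had 198 CpGs at both ages. Only 7 of the 16 genes had any CpG, and just 5 had 3 or more at both ages. Zfp981 stood at 93.3% over 5 CpGs, Zfp982 at 82.5% over 51, Zfp978 at 41.4% over 61, Zfp933 at 35.6% over 11 and Zfp993 at 17.7% over 69. In Zfp933 and Zfp982 the start and body parted: the 5′ ends averaged 0.194% in Zfp933 and 1.39% in Zfp982, and the bodies 97.5% in Zfp933 and 87.6% in Zfp982. Zfp992 had 1 CpG at both ages and Zfp984 had 1 CpG listed at 3 months. The cluster as a whole averaged 44.6% ± 1.66 in HEM against 45.8% ± 1.497 in WT at 13 months (SD, n = 8 and 4), and 45.8% ± 1.09 in HEM against 44.2% ± 0.407 in WT at 3 months (SD, n = 4 each). The groups overlapped at both ages: HEM ran from 41.7% to 46.1% and WT from 44.3% to 47.6% at 13 months, and HEM from 44.57% to 46.97% and WT from 43.85% to 44.61% at 3 months. HEM minus WT was thus -1.24 points at 13 months and 1.59 points at 3 months, and the difference in sign was not tested for the cluster. These means include pseudogene CpGs inside the Zfp993 span, described below. The 25 CpGs of Gm13140 differed by -7.19 points at 13 months and 4.90 points at 3 months. At 13 months the 37 CpGs of Gm20760 went the other way, by 2.52 points. Without WT replicate 2 of 13 months the first was -0.635 points, and with each gene counted once the second was 0.571 points.

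The first comparison set HEM against WT at 13 months. A CpG was called when limma's adjusted p over all CpGs was under 0.05 and the group means differed by at least 10 points. Of 4403 Zfp CpGs tested 1 was called, against 0.000881% of all CpGs tested. At an unadjusted p under 0.05 there were 260 (5.91%), against 5.82% of all CpGs tested. The called CpG was position 146932654 of chromosome 4, inside the annotated span of Zfp993 (146512849 to 146991471, 478623 bp). In HEM it ran from 7.5% through a median of 13.5% to 22.2%, and in WT it was listed at 0% in all 4 libraries, so the groups did not overlap. The means were 13.3% ± 4.58 in HEM against 0% ± 0 in WT (SD, n = 8 and 4), with a log2 ratio difference of 3.98 ± 0.354 (SE) and limma's adjusted p of 0.00216. The call was lost when percent values were tested in place of log ratios (adjusted p of 0.755) and with an offset of 5 in the ratio. At 3 months the same position stood at 8.16%, 23.1%, 8% and 0% in the HEM libraries, against 10.7%, 0%, 14.7% and 0% in the WT libraries (limma's adjusted p of 0.985). The interaction of genotype and age at this position had an unadjusted p of 0.0165 and an adjusted p of 0.776 in limma.

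The position next to it, 146932655, is the cytosine of the other strand of the same CpG, and it gave no such difference. At 13 months it ran from 4.76% through a median of 9.87% to 25.0% in HEM and stood at 10%, 5%, 19.05% and 12.5% in WT. The means were 11.8% ± 6.59 in HEM against 11.6% ± 5.84 in WT (SD, n = 8 and 4; limma's adjusted p of 0.9996). When the adjacent positions were averaged, no Zfp CpG was called at 13 months. Over the Zfp CpGs listed as adjacent positions at 13 months (2346 pairs), the levels of the strands differed by a median of 0.214 points. Their differences between HEM and WT lay a median of 0.418 points apart. Of the Zfp CpGs listed at both ages 69.3% averaged under 10%, so these medians are no yardstick for 1 site of unknown depth. The site lies within Gm20760, an annotated pseudogene at 146932393 to 146933560, and Gm20760 together with the pseudogene Gm13140 (146942276 to 146946029) held 62 of the 69 CpGs of the Zfp993 span listed at 13 months. Over the 37 CpGs of Gm20760, HEM averaged 12.6% ± 2.43 and WT 10.1% ± 1.49 (SD, n = 8 and 4), with 25 CpGs higher and 12 lower in HEM, and the libraries overlapped. At 3 months 58 CpGs averaged 14.7% ± 1.84 in HEM against 13.5% ± 1.46 in WT (SD, n = 4 each). Over the 25 CpGs of Gm13140 the difference ran the other way at 13 months, with 28.8% ± 6.94 in HEM against 36.0% ± 4.87 in WT, and at 3 months HEM was higher, with 35.5% ± 3.90 in HEM against 30.6% ± 2.65 in WT. How reads were placed among near copies of such pseudogenes is not given in the sources used here, and values in this span are uncertain to that extent.

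**Figure D4:**
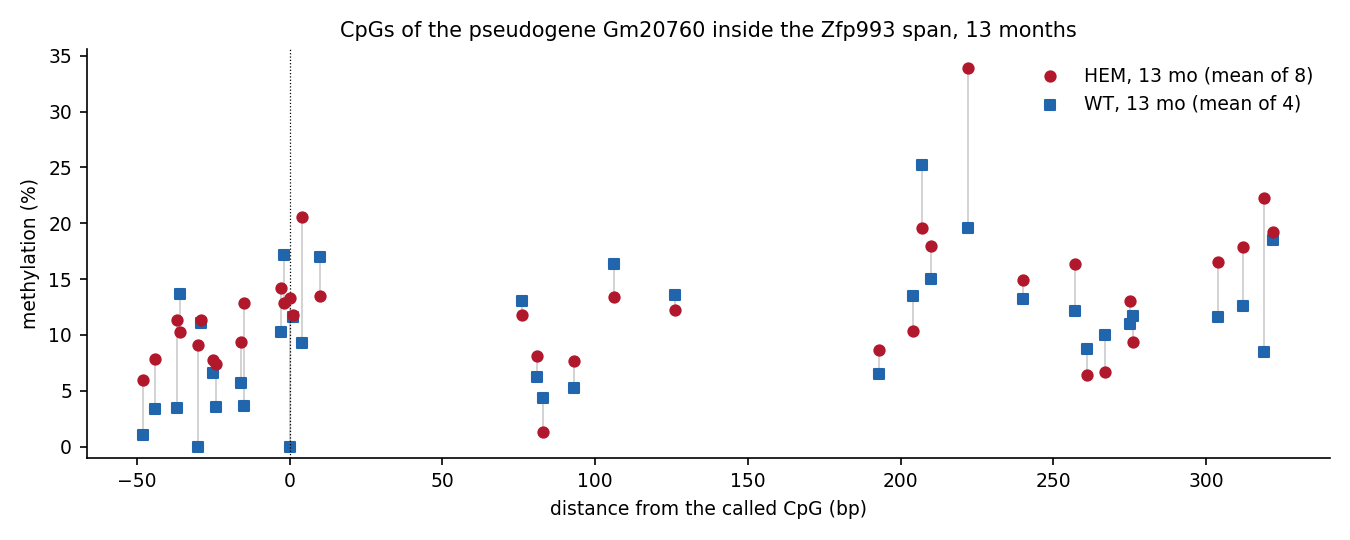
Methylation in percent (y axis) of the 37 CpGs of Gm20760 at 13 months by distance in bp from the called CpG (x axis), as the mean of 8 HEM and of 4 WT libraries, joined by a grey line at each CpG. HEM lies above WT at 25 CpGs and below it at 12, and the called CpG is 1 of 2 at which the WT mean is 0%.

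Further Zfp CpGs of smallest p at 13 months did not pass the adjustment. Higher in HEM were positions in Zfp628 (98.3% in HEM against 81.7% in WT, adjusted p of 0.278), Zfp566 (97.7% in HEM against 87.8% in WT, 0.299), Zfp697 (9.93% in HEM against 0.919% in WT, 0.463) and Zfp11 (93.0% in HEM against 80.9% in WT, 0.610). Lower in HEM were positions in Zfp950 (90.7% in HEM against 98.4% in WT, 0.462), Zfp957 (90.5% in HEM against 100% in WT, 0.559), Zfp787 (92.2% in HEM against 98.2% in WT, 0.635), Zfp710 (92.2% in HEM against 98.2% in WT, 0.660) and Zfp521 (90.7% in HEM against 97.2% in WT, 0.669). Of 30 CpGs within 100 bp of the Zfp697 CpG, 28 were higher in HEM. They averaged 7.10% ± 4.57 in HEM against 3.10% ± 2.17 in WT (SD, n = 8 and 4), with overlapping libraries. These neighbours come from the same libraries and are not independent of the CpG. HEM replicates 7 and 10 were highest at both, with 14.2% and 13.5% over the neighbours and 18.4% and 21.3% at the CpG. At the Zfp628 CpG, which also lies in Nat14, all 4 neighbours were lower in HEM while the CpG itself was higher.

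No Zfp gene region was called at 13 months among 221 tested, and none was called among all 12393 gene regions (0%); regions needed an adjusted p under 0.05 and 5 points. At an unadjusted p under 0.05 there were 4 Zfp regions (1.81%), against 3.73% of all regions. The median difference, HEM minus WT, was 0.0629 points over Zfp regions and 0.00894 points over all regions, and 125 Zfp regions were higher and 96 lower in HEM. The smallest p belonged to Zfp949, over 14 CpGs, at 39.6% ± 0.984 in HEM against 37.3% ± 0.805 in WT (SD, n = 8 and 4; unadjusted p of 0.00290 and adjusted p of 0.9996 in limma). HEM ran from 38.1% to 40.7% and WT from 36.1% to 37.9%, so its groups did not overlap, and at 3 months it gave 0.397 points with an unadjusted p of 0.578. The smallest p in the other direction belonged to Zfp974, at 33.9% ± 0.724 in HEM against 35.2% ± 0.553 in WT (unadjusted p of 0.0162). Next by p among regions higher in HEM were Zfp735, Zfp809, Zfp811 and Zfp335, by 1.49 to 5.46 points, and among regions lower in HEM Zfp703, Zfp106, Zfp82 and Zfp516, with differences of -0.702 to -7.83 points, all with unadjusted p of 0.0428 to 0.105 in limma.

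At 3 months, no Zfp CpG was called of 4807 tested by limma, as none was among all CpGs tested (0%), and 224 (4.66%) had an unadjusted p under 0.05, against 4.53% of all. The smallest p was at a CpG of Zfp831 (100% in HEM against 89.2% in WT, adjusted p of 0.385). A larger gap stood in Zfp609, at position 65704204 of chromosome 9. HEM libraries were at 95.2%, 88%, 91.3% and 95.8%, and WT libraries at 75%, 66.7%, 64.9% and 53.3%. The groups did not overlap and differed by 27.6 points, with limma's adjusted p of 0.775. At 13 months this CpG stood at 89.2% ± 7.46 in HEM against 89.1% ± 5.90 in WT (SD, n = 8 and 4), and its 5 neighbours within 100 bp averaged 90.5% in HEM against 92.9% in WT at 3 months. The other strand of this CpG stood at 87.4% in HEM against 86.7% in WT at 3 months. Zfp319 (95.6% in HEM against 71.5% in WT), Zfp566 (99.2% in HEM against 85.6% in WT) and a second CpG of Gm20760 in the Zfp993 span (17.5% in HEM against 3.10% in WT, at position 146932863) were also higher in HEM. The other strand of that last CpG stood at 6.62% in HEM against 9.72% in WT, and at Zfp319 all 6 neighbours within 100 bp were higher in HEM. Over these neighbours WT replicate 3 stood at 71.9% and the other WT libraries at 84.6% to 90.0%. HEM libraries ran from 88.3% to 93.0%, so the groups overlapped. Lower in HEM were Zfp874a (2.63% in HEM against 13.1% in WT), Zfp865, Zfp69, Zfp217 and Zfp628, with differences of -6.42 to -13.1 points. Each of these had an adjusted p of 0.985.

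No Zfp region was called at 3 months among 233 tested by limma or among all 12682 regions (0%), and 5 (2.15%) had an unadjusted p under 0.05, against 3.90% of all. The median difference was -0.0265 points over Zfp regions and -0.0571 points over all. Zfp239, over 23 CpGs, had the smallest p: HEM was at 77.1% ± 3.69 and WT at 69.6% ± 1.25 (SD, n = 4 each; unadjusted p of 0.00449), while at 13 months HEM was at 72.0% ± 6.88 and WT at 73.6% ± 7.79 (SD, n = 8 and 4). Next by p among regions higher in HEM were Zfp87 (2.81 points), Zfp566, Zfp57 and Zfp597, and of smallest p among regions lower in HEM were Zfp46 (-2.96 points), Zfp660, Zfp382, Zfp707 and Zfp790.

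Between ages, 3 Zfp CpGs were called in HEM of 4360 tested, against 0.0305% of all CpGs tested; 437 (10%) had an unadjusted p under 0.05, against 10.4% of all. The first 2 lie past the annotated 3′ end of Zfp758, a gene of the chromosome 17 cluster at 22361430 to 22393909. At position 22394607, which is 698 bp past the end, HEM libraries of 13 months ran from 29.6% through a median of 49.5% to 92.9%, and those of 3 months stood at 0%, 0%, 2.97% and 0%. WT libraries stood at 47.9%, 86.1%, 0% and 76.7% at 13 months and at 0% in all 4 at 3 months. At position 22394468, which is 559 bp past the end, HEM ran from 20.6% through 38.3% to 91.9% at 13 months and stood at 0%, 0%, 0% and 1.82% at 3 months. WT stood at 40.7%, 90.6%, 0% and 85.0% at 13 months and at 0%, 4.35%, 0% and 0% at 3 months. The older HEM libraries were thus all above the younger, and 1 older WT library, replicate 6, was at 0% at both positions. Levels at 13 months were step-like and shared between the 2 positions. HEM replicates 3 and 8 stood at 90.7% and 92.9% at the first and at 84.8% and 91.9% at the second. The other HEM libraries ran from 29.6% to 51.7% at the first and from 20.6% to 50% at the second. The cause of these steps was not tested. In HEM the differences were 55.9 points (limma's adjusted p of 0.00278) and 46.4 points (0.0131). Without HEM replicate 1 or 2 of 3 months the second lost its call (adjusted p of 0.0695 and 0.0638). Both calls were lost on percent values (adjusted p of 0.159 and 0.265), with the variance of each CpG taken alone (0.108 and 0.193) and with no filter on level. In WT they were 52.7 points and 53.0 points, with an adjusted p of 0.975 each, and without WT replicate 6 of 13 months both were called in WT (70.2 and 70.99 points, adjusted p of 0.00155 and 0.0278). The surroundings did not share the step: the 8 neighbours within 100 bp of the first position averaged 92.6% at 13 months and 92.2% at 3 months in HEM, and 93.7% and 94.3% in WT. The interaction had an unadjusted p of 0.685 at the first and 0.771 at the second position.

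The third called CpG, at position 21516481 of chromosome 17 in the body of Zfp53, ran the other way. It was at 0% in all 8 HEM libraries of 13 months and at 2.78%, 6.49%, 37.4% and 18.6% in those of 3 months, a difference of -16.3 points (limma's adjusted p of 0.0134). This call too was lost on percent values (adjusted p of 0.304), with its own variance (0.152) and with no filter on level. In WT it stood at 0%, 0%, 0% and 4.17% at 13 months and at 34.85%, 13.3%, 1.04% and 0% at 3 months (adjusted p of 0.975). Here the neighbours moved with it: the 7 CpGs within 100 bp averaged between 0% and 0.350% in HEM of 13 months and 0.131%, 0.191%, 29.7% and 14.4% in HEM of 3 months, and in WT 0%, 0.0999%, 0% and 3.24% at 13 months and 32.1%, 20.9%, 1.65% and 0.249% at 3 months. Of the 8 younger libraries, 4 were thus under 2% and 4 between 14.4% and 32.1%, in both genotypes. Without HEM replicate 3 or 7 of 3 months the mean of the CpG fell under the 5% level that testing required, so the call rests on both. The whole Zfp53 region, over 53 CpGs, averaged 0.210% ± 0.123 in HEM against 0.287% ± 0.231 in WT at 13 months (SD, n = 8 and 4), and 2.32% ± 2.67 in HEM against 2.69% ± 2.75 in WT at 3 months (SD, n = 4 each).

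**Figure D5:**
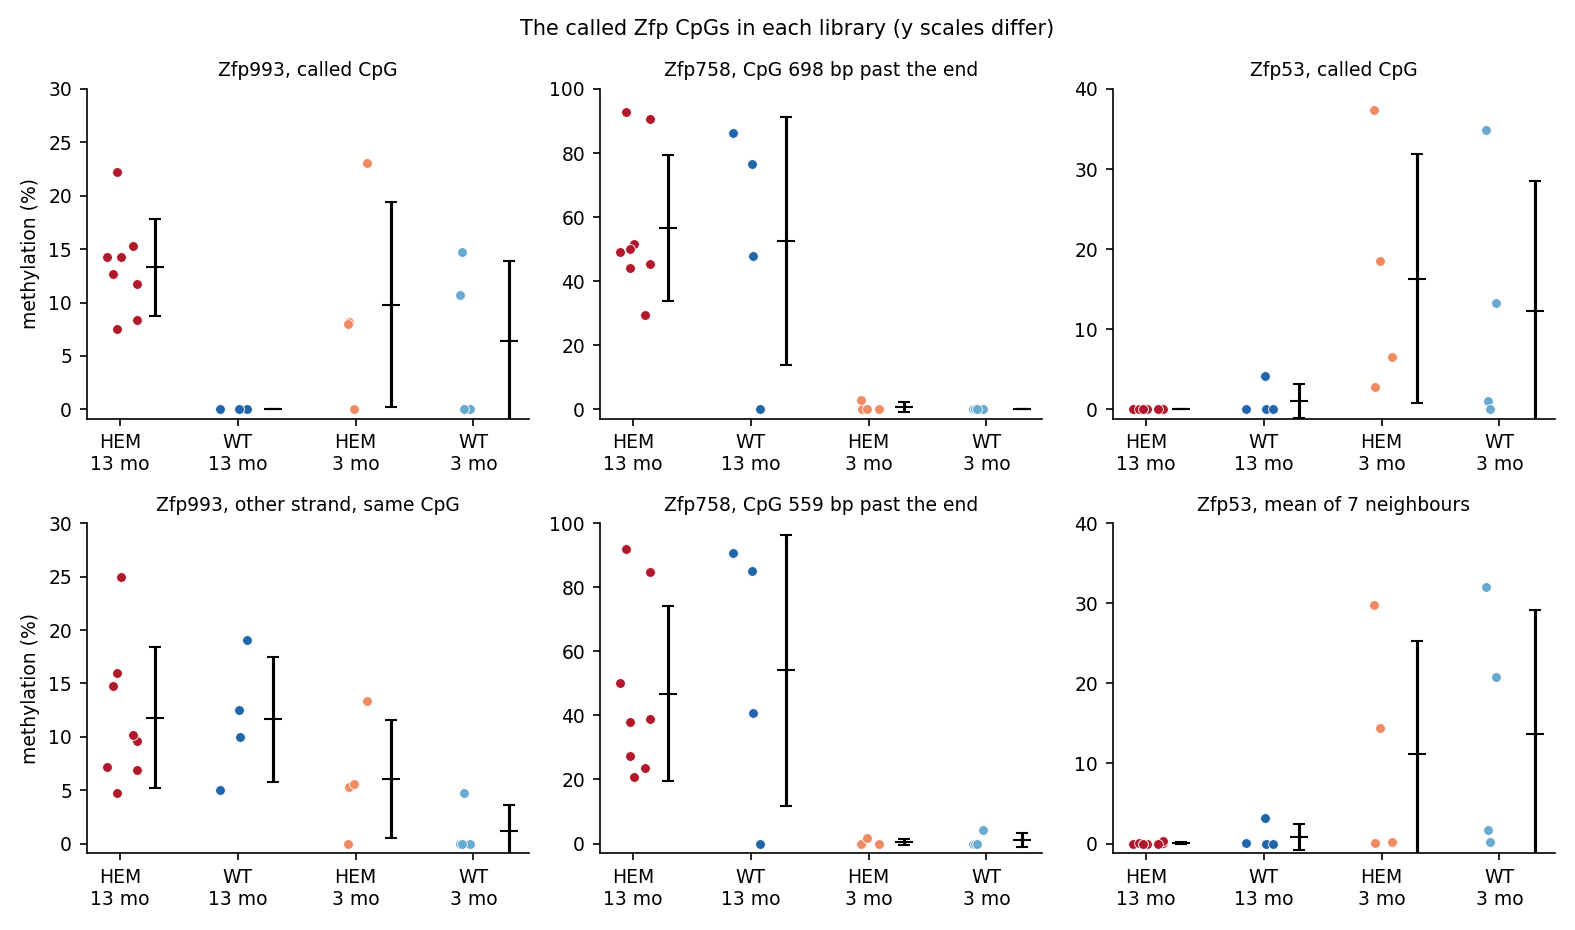
Methylation in percent (y axis, scales differ) at the called Zfp CpGs by group (x axis), with the other strand of the Zfp993 CpG and the mean of the 7 neighbours of the Zfp53 CpG. Points are libraries, and the bar beside them is the mean and SD, cut off where it would pass below the axis. At Zfp993 the WT libraries of 13 months are all at 0% while the other strand averages 11.6% in them, at Zfp758 all libraries of 3 months lie under 5%, and at Zfp53 the HEM libraries of 13 months lie at 0%.

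In WT no Zfp CpG was called between ages by limma of 4321 tested, against 0.0183% of all CpGs tested, and 251 (5.81%) had an unadjusted p under 0.05, against 4.79% of all. The largest difference among CpGs named there was in the body of Zfp651, at position 121764255 of chromosome 9: WT stood at 66.7%, 3.70%, 36.4% and 5% at 13 months and at 91.4%, 100%, 90.1% and 100% at 3 months, with no overlap and an adjusted p of 0.451. HEM at the same CpG ran from 15.8% through 36.0% to 100% at 13 months and from 82.9% to 100% at 3 months. Other CpGs of smallest p were in Zfp316 (18.8% at 13 months and 1.43% at 3 months in WT), Zfp957, Zfp646 and Zfp90, and at the other strand of the Zfp993 CpG (11.6% at 13 months and 1.19% at 3 months in WT). In HEM, CpGs of Zfp384 (7.16 points), Zfp710 (-20.1 points) and Zfp217 (-5.95 points) followed the called ones, with adjusted p of 0.0735 to 0.121. Without HEM replicate 3 of 13 months the CpG of Zfp710 was called as well (-22.1 points, adjusted p of 0.0448).

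No Zfp region was called between ages by limma, either in HEM (220 tested, 0% of all 12335) or in WT (221 tested, 0% of all 12326). In HEM 28 Zfp regions (12.7%) had an unadjusted p under 0.05, against 13.6% of all, and in WT 14 (6.33%), against 4.63% of all. The median difference, 13 minus 3 months, was 0.183 points over Zfp regions and 0.304 points over all regions in HEM, and 0.0986 points and 0.223 points in WT. Zfp213 had the smallest p in HEM, over 23 CpGs, at 34.8% ± 1.51 at 13 months and 30.8% ± 0.912 at 3 months (SD, n = 8 and 4; adjusted p of 0.150), and in WT it stood at 34.8% ± 1.77 at 13 months and 31.6% ± 1.64 at 3 months (SD, n = 4 each; unadjusted p of 0.0238). Zfp996, not called, went the other way, with 18.7% ± 2.93 at 13 months and 28.1% ± 4.31 at 3 months in HEM, all within its 5′ end (unadjusted p of 0.000723). In WT the Zfp758 region differed by 6.78 points (unadjusted p of 0.00513), and in HEM by 5.43 points (0.00409). Its 2 CpGs described above are among the 18 CpGs averaged in that region. They differed by 46.4 to 55.9 points, so most of the region difference in both genotypes comes from these 2 positions.

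The interaction asks whether the difference between genotypes changed with age. No Zfp CpG was called of 4368 tested by limma, against 0.000224% of all CpGs tested, and 274 (6.27%) had an unadjusted p under 0.05, against 6.28% of all. No Zfp region was called of 221 tested or of all 12338 (0%), and 8 (3.62%) had an unadjusted p under 0.05, against 4.97% of all.

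The partners through which KRAB zinc finger proteins act were measured as their own gene regions. Of 23 symbols listed 22 had regions, and the remaining symbol, Fam208a, is an earlier name of the listed Tasor. Of these regions 16 were tested, and none passed limma's adjusted p in any of the 5 comparisons. The corepressor gene Trim28 stood at 0.207% ± 0.192 in HEM against 0.0880% ± 0.0606 in WT at 13 months (SD, n = 8 and 4), and Setdb1 at 27.8% ± 1.16 in HEM against 27.9% ± 1.14 in WT. Trim28 lay under the 5% level that testing required and was not tested. The smallest p in the list belonged to Uhrf1, which helps copy methylation at replication, between ages in HEM (0.634 points, unadjusted p of 0.0225, lowest adjusted p of the list 0.322). At an unadjusted p under 0.05 there were 2 of 16 in that comparison (12.5%), against 13.6% of all regions, and none in the other 4. Over the list, HEM minus WT had a median of 0.00131 points at 13 months and -0.121 points at 3 months.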

How the data were processed

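The deposited files hold percent methylation per cytosine position, computed by the authors from bisulfite reads. Bowtie2, methylKit and the mm10 build are named per the submitters' processing notes, with no versions or settings. Read counts are not in the tables used here, so depth is unknown and no counting intervals are given. In the series table of 13 months, 1 of the 13 value columns matched none of the libraries and was left out. Positions of the 2 strands of a CpG are listed apart and each was counted as a CpG.

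Gene regions were annotated genes with 1000 bp on either side. Percent values were tested as log2((percent + 1)/(100 - percent + 1)) with limma 3.58.1 in R 4.3.3, on features with a mean of 5% to 95%. The libraries of the groups compared entered each fit, and all 20 entered the interaction. P-values were adjusted by Benjamini-Hochberg over all CpGs, or over all gene regions of at least 3 CpGs. Features were called at an adjusted p under 0.05 when group means also differed by at least 10 points (CpG) or 5 points (region). The procedure was run on simulated data for the genotype comparisons only, with changes planted at middle levels. That run does not cover the age comparisons or CpGs near 0%, such as those called here. Named genes were those called, those of smallest p in each direction, those with CpGs in the chromosome 4 cluster, the 5 highest, lowest and most variable regions, and genes of known role. Genes with methylated starts and genes with many variable CpGs were added after their values were seen. Members and lists were chosen with earlier results of these data known. Promoter sequences and strands are from RefSeq, GRCm38.p6; 325 genes matched. Alternatives covered the scale, offset, filter, variance model, replicate block, strands, region limits and each library left out.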

Additional observations from a re-analysis of the deposited data

Results flagged for a closer look

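Among gene regions and CpGs named in the report, 33 of 364 groups of libraries (9.07%) held 1 library far from the rest of its group. Chance flags about 1 group in 20, but in 10 of the 33 the other libraries were tied at 0% or 100%, where any differing value stands apart, so the share cannot be set against that rate. No explanation of any of them was tested.

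The gene regions were 20 in number, over CpGs listed at both ages. Zfp949 stood at 37.89% in HEM replicate 1 of 3 months, against 39.55% to 39.82% in the others. In WT replicate 5 of 3 months, Zfp735 was at 83.06%, against 89.75% to 90.17% in the others. For Zfp239, HEM replicate 8 of 13 months had 57.5%, against 69.09% to 78.44% in the others. Zfp87 stood at 91.89% in HEM replicate 10 of 13 months, against 94.93% to 97.47% in the others. In HEM replicate 13 of 13 months, Zfp597 was at 0.8777%, against 0.08016% to 0.3634% in the others. For Zfp46, WT replicate 3 of 3 months had 47.15%, against 50.08% to 50.32% in the others. Zfp660 stood at 29.97% in HEM replicate 2 of 3 months, against 32.07% to 32.14% in the others. In HEM replicate 6 of 13 months, Zfp382 was at 16.3%, against 15.42% to 15.83% in the others. For Zfp213, HEM replicate 10 of 13 months had 31.49%, against 34.14% to 36.32% in the others. Zfp996 stood at 29.72% in WT replicate 1 of 3 months, against 21.15% to 21.68% in the others. In HEM replicate 8 of 13 months, Zfp551 was at 13.72%, against 21.22% to 25.55% in the others. For Zfp933, HEM replicate 1 of 3 months had 36.09%, against 34.92% to 35.08% in the others. Zfp952 stood at 96.02% in WT replicate 3 of 3 months, against 98.03% to 98.3% in the others. In HEM replicate 1 of 3 months, Zfp946 was at 0.2114%, against 0% in each of the others. For Zfp957, WT replicate 1 of 3 months had 60.94%, against 70.56% to 71.43% in the others. Zfp874b stood at 39.61% in WT replicate 1 of 13 months, against 25.74% to 26.59% in the others. In HEM replicate 8 of 13 months, Zfp383 was at 78.56%, against 87.72% to 94.72% in the others. For Zfp568, HEM replicate 11 of 13 months had 16.87%, against 18.24% to 19.17% in the others. Zfp42 stood at 88.33% in HEM replicate 1 of 3 months, against 86.3% to 86.57% in the others. In HEM replicate 10 of 13 months, Zfp36l1 was at 2.446%, against 0.2486% to 0.9961% in the others.

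The CpGs gave 13 such groups. Zfp628 position 4919024 stood at 100% in WT replicate 5 of 3 months, against 88.52% to 90.48% in the others. In WT replicate 5 of 3 months, Zfp11 position 129656831 was at 98.31%, against 91.27% to 91.84% in the others. For Zfp609 position 65704204, WT replicate 2 of 13 months had 97.87%, against 85.71% to 86.96% in the others. Zfp566 position 30077903 stood at 96.77% in HEM replicate 7 of 3 months, against 100% in each of the others. In HEM replicate 3 of 3 months, Zfp758 position 22394607 was at 2.97%, against 0% in each of the others. For Zfp758 position 22394468, HEM replicate 7 of 3 months had 1.818%, against 0% in each of the others. Zfp758 position 22394468 stood at 4.348% in WT replicate 3 of 3 months, against 0% in each of the others. In WT replicate 7 of 13 months, Zfp53 position 21516481 was at 4.167%, against 0% in each of the others. For Zfp217 position 170143216, WT replicate 1 of 3 months had 88.24%, against 100% in each of the others. Zfp993 position 146932655 stood at 4.762% in WT replicate 5 of 3 months, against 0% in each of the others. In WT replicate 3 of 3 months, Zfp646 position 127882401 was at 96.92%, against 99.5% to 100% in the others. For Zfp90 position 106422871, HEM replicate 3 of 13 months had 88.89%, against 100% in each of the others. Zfp90 position 106422871 stood at 96% in WT replicate 5 of 3 months, against 100% in each of the others.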

How the results depend on the processing

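The counts of called Zfp CpGs changed with several choices. For HEM against WT at 13 months the count of 1 became 0 with percent in place of the log ratio, with an offset of 5, with the replicate block and with adjacent positions averaged, and stayed at 1 without each library in turn. For 13 against 3 months in HEM the count of 3 became 0 with percent values, with no level filter, with each CpG's own variance and with the replicate block, and ran from 2 to 4 without each library in turn. An equal count did not always mean the same CpGs. Without HEM replicate 1 of 3 months a CpG of Zfp423 was newly called. Without replicate 2 it was position 146932652 of Zfp993, and without replicate 3 a CpG of Zfp704. For 13 against 3 months in WT the count of 0 became 1 with an offset of 5 and ran from 0 to 3 without each library in turn, with 3 without WT replicate 6 of 13 months and 1, in Zfp148, without WT replicate 3 of 3 months. The causes were not tested. At the Zfp993 CpG the adjusted p in limma was 0.755 on percent values and 0.818 with the replicate block, and 0.00209 to 0.0146 without each library in turn. Over all alternatives to the counts and mean levels, those above included, 258 left the result about the same. For a count this meant equal or close to the main count, as 2 or 4 against 3. For a mean difference it meant a move of less than the larger SD of the groups, so a change of sign could pass. Every count of called gene regions stayed at 0. Replicate numbers are not stated to pair mice, and they were not taken to pair the libraries, since not every correlation was over 0.1: deviations of same-numbered libraries correlated at 0.104, 0.229 and 0.0497 at 13 months, at 0.0545 and -0.122 at 3 months, and at 0.0274, -0.152 and -0.0156 between ages in HEM. At 13 months each of the 3 numbers correlated best with itself, a hint from the data and not from the design. For age in WT no block was fitted, because its libraries share 1 number only, and none was fitted for the interaction. Unknown depth limits single CpGs.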
